A study of Mus musculus with 78 samples.

Results

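The ZFP143 peaks described here are those that lie away from promoters. They were taken from the 1 list of ZFP143 peaks of mouse embryonic stem cells (mESCs) as the entries that share no base with a CTCF peak and whose centre lies more than 2 kb from every annotated transcript start of a protein-coding or long non-coding gene. They numbered 1075 of 3189 peaks, or 33.7%. Another 1893 peaks (59.4%) lay within 2 kb of a start and are called promoter peaks below, and 221 (6.93%) shared bases with 1 of the 22314 CTCF peaks.

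All cells were E14TG2a mESCs, grown with 2 kinase inhibitors and LIF (2i/LIF). Both controls and treated cells carried ZFP143-FKBP, the endogenous protein fused at its C-terminal end to FKBP12F36V and 2 copies of the HA tag. The inserted cassette also encodes GFP, behind a P2A sequence that separates it from the fusion protein. FKBP12F36V is a degron, a domain through which the small molecule dTAG-V1 (500 nM) brings the fusion protein to an E3 ubiquitin ligase for degradation, and DMSO was the control. The peak list came from ChIP-seq with an antibody against the HA tag. Changes after depletion were read from transient transcriptome sequencing (TT-seq), which captures newly made RNA, at 2, 6 and 24 h against DMSO, from RNA-seq at 24, 48 and 72 h against DMSO, and from a second RNA-seq table in which cells were kept in DMSO or dTAG-V1 for 24 h and were then given retinoic acid (RA) for 24 h in a differentiation medium in the same condition, which makes 48 h of depletion. Each group of these tables held 2 biological replicates. All libraries come from an edited cell line, so a change holds the loss of the tagged protein and any effect of dTAG-V1, and the RA groups hold RA together with a change of medium.

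ZFP143 is a zinc-finger transcription factor, known in frogs as Staf, that activates both protein-coding genes and genes of small nuclear RNAs (snRNAs), the RNA part of the splicing machinery. It binds the Staf binding site (SBS), whose known sequence holds a first part ending in a run of A and T and a second part that starts with a run of C. Promoters of snRNA genes carry this site upstream of the start beside an octamer, the site of the POU factor POU2F1 (Oct-1), in what is called the distal sequence element. CTCF is the zinc-finger protein that stops cohesin at the base of chromatin loops.

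The joined SBS was written as ACTACAATT followed directly by CCCANNATG, which gives 16 fixed letters, and every peak was scored by the best window on either strand. The sequences below are shown because they are the 6 peaks away from promoters in which all 16 letters matched, together with the most enriched peak, at Ube2v1, and the peak nearest to Esrrb, a pluripotency factor. Each is read 5′ to 3′ on the strand of the match from GRCm38 (mm10), with 40 bases on either side, and capitals mark the 18 bases of the match.
Ube2v1 peak, 14 letters, intron of Gm20431, chr2:167634488-167634585, minus strand: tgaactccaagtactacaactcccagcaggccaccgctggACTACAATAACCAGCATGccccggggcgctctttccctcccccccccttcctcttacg
Gm31333 peak, 16 letters, between genes, chr12:29291090-29291187, minus strand: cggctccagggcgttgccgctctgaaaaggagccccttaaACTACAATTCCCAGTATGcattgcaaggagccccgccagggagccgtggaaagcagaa
Sit1 peak, 16 letters, between genes, chr4:43478260-43478357, plus strand: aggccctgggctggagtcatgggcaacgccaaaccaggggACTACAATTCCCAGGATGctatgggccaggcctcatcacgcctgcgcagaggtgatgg
Gm13404 peak, 16 letters, between genes, chr2:33986521-33986618, plus strand: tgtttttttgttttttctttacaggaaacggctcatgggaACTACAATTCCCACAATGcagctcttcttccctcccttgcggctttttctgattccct
Lgi1 peak, 16 letters, between genes, chr19:38258690-38258787, minus strand: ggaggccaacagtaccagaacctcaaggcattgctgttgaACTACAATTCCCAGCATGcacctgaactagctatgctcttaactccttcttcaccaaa
Grin2d peak, 16 letters, intron, chr7:45862975-45863072, plus strand: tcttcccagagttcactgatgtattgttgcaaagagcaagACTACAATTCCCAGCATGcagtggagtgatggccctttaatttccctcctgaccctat
Pde2a peak, 16 letters, intron, chr7:101426991-101427088, minus strand: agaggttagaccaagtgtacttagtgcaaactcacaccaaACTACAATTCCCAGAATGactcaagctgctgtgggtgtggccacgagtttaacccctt
Esrrb peak, 15 letters, between genes, chr12:86589102-86589199, minus strand: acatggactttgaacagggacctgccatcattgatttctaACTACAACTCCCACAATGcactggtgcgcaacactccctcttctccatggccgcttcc

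The fold enrichment over input of these 8 peaks differed widely although their marked matches were close to identical. The Ube2v1 peak is not alike in all, since its printed stretch holds a further, unmarked window. This window, actacaactcccagcagg, matches as many letters as the marked one. It was 128 at Ube2v1, 74.0 at Gm31333, 40.7 at Sit1, 33.9 at Gm13404, 27.9 at Lgi1, 19.6 at Grin2d, 11.9 at Pde2a and 11.8 at Esrrb. The nearest start was also at very different distances, from 2.47 kb at Ube2v1 to 149 kb at Gm31333.

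Many of the most enriched peaks away from promoters lay at genes of small RNAs, which the rule does not count as promoters. The 260 bases before 5 such genes are shown next because each carries the octamer or letters of the SBS within this stretch. They are read on the strand of the gene up to its first base, and capitals mark the octamer ATTTGCAT, the short SBS core ACTACA or the second SBS part CCCANNATG, on either strand.
Upstream of Gm24950, chr11:101641488-101641747, plus strand: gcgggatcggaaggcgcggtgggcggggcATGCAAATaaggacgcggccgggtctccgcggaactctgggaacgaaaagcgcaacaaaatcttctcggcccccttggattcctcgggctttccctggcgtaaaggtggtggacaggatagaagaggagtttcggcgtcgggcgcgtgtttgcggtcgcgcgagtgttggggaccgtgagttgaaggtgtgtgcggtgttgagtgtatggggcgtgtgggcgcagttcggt
Upstream of Gm22973, chr12:59040075-59040334, plus strand: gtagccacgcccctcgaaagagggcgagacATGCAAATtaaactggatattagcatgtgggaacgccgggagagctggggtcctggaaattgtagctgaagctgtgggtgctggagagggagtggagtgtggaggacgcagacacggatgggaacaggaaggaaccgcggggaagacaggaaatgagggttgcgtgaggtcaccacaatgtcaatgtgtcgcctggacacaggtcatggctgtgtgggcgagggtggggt
Upstream of Rnu2-10, chr11:101657978-101658237, plus strand: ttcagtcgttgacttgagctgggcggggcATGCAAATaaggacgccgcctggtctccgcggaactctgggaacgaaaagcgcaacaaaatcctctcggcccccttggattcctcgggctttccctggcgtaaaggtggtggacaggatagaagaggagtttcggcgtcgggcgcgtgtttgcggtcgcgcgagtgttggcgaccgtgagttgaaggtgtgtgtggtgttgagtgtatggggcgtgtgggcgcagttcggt
Upstream of Rny1, chr6:47788181-47788440, minus strand: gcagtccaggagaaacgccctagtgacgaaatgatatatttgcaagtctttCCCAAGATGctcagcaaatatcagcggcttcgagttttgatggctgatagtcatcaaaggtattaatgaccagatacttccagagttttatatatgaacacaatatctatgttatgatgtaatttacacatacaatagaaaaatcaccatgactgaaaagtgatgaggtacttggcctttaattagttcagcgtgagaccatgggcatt
Upstream of Rnu1a1, chr11:87422607-87422866, plus strand: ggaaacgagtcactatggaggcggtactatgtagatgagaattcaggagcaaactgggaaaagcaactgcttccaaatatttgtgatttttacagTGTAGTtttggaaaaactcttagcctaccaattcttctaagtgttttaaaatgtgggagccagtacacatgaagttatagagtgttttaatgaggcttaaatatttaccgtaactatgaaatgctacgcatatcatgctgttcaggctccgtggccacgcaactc
In the 3 most enriched of these, Gm24950, Gm22973 and Rnu2-10, which the annotation types as snRNA genes, the octamer started at −231, −230 and −231 bp from the start of the gene, which is 52, 47 and 64 bp upstream of the peak summit. The marked letters started 17 bp upstream of the summit at Rny1 and 3 bp upstream at Rnu1a1. No octamer was found before Rny1, a gene of Y RNA, the small RNA bound by the Ro60 protein, or before Rnu1a1, a gene of the U1 snRNA.

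Peaks away from promoters were weaker than promoter peaks. Their median fold enrichment was 10.2 (95% interval from binomial order statistics 9.64 to 10.7, range 3.64 to 128), against 33.3 in promoter peaks and 29.1 in peaks overlapping CTCF. An enrichment above 20-fold was reached by 209 of them (19.4%), by 67.9% of the promoter peaks and by 61.1% of those overlapping CTCF. The median −log10 q was 15.5, against 87.2 and 67.2, and the median length was 274 bp, against 483 and 457 bp. The list has no replicates, so these differences between classes are descriptions without a test, and peaks of 1 list are not replicates of each other.

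**Figure D1:**
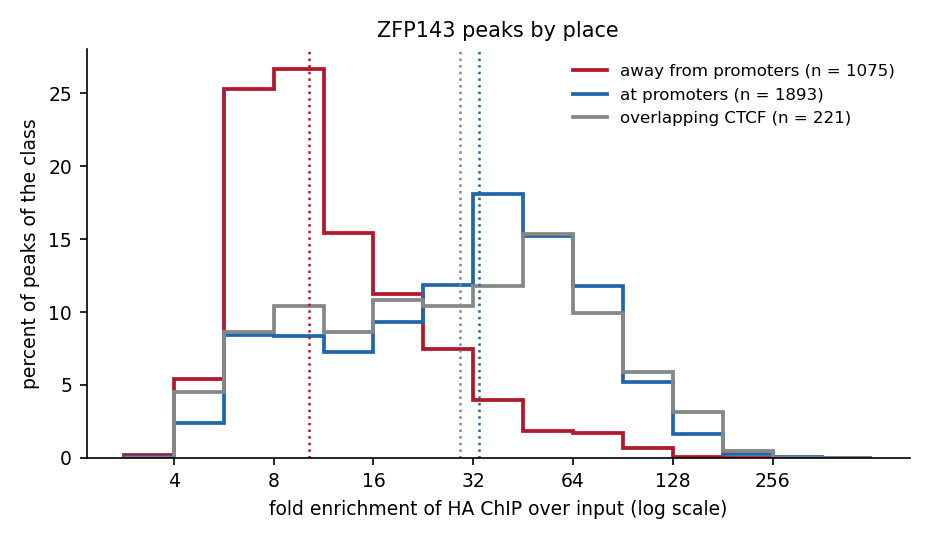
Distribution of the fold enrichment of HA ChIP over input (x axis, log scale) as the percent of the peaks of each class (y axis), with dotted lines at the class medians. The 1075 peaks away from promoters centre on 10.2-fold, the 1893 promoter peaks on 33.3-fold and the 221 peaks overlapping CTCF on 29.1-fold, and the right tail of the first class reaches 128-fold.

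The sequence under the peaks differed as well. The median GC content was 50.2% away from promoters, 59.1% at promoters and 57.7% in peaks overlapping CTCF. The ratio of observed to expected CpG, which is high in CpG islands, had a median of 0.21, against 0.76 and 0.71, and reached 0.6 in 64 peaks (5.95%), against 72.2% and 62.9%. These 64 CpG-rich peaks had a median enrichment of 17.3. Over 50% of the interval was annotated as repeats in 69 peaks away from promoters (6.42%), whose median enrichment was 8.92, and in 0.528% of the promoter peaks.

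By the place of their centre, 552 peaks (51.3%; exact 95% interval 48.3 to 54.4%, counting error only) lay between genes, 469 (43.6%; 40.6 to 46.7%) in introns and 54 (5.02%; 3.8 to 6.5%) in exons. The median enrichment was 10.2 both in introns and between genes and 8.32 in exons. Of the exonic peaks 26 lay in untranslated parts, 16 in coding parts and 12 in non-coding transcripts. Relative to the gene with the nearest start, 409 peaks (38%) lay inside that gene, 411 (38.2%) upstream of it and 255 (23.7%) past its end.

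The median distance to the nearest start was 13.9 kb. Between 2 and 5 kb lay 198 peaks with a median enrichment of 11.3, between 5 and 10 kb 223 with 10.8, between 10 and 50 kb 499 with 9.64, between 50 and 100 kb 92 with 9.53, and over 100 kb 63 with 9.51. At the edge of the rule, 24 peaks at 2000 to 2200 bp had a median of 12 (4.89 to 116), and 17 promoter peaks at 1800 to 2000 bp a median of 9.07 (6.23 to 38.1). 

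Peaks away from promoters were found on all 19 autosomes and on X. Their share of all peaks of a chromosome went from 24.1% on chromosome 7 (83 of 345) to 39.9% on chromosome 8 (81 of 203). Another ZFP143 peak of any class lay within 10 kb of 119 of them (11.1%), and 88 of the 970 nearest genes had more than 1. Tex14 and the long non-coding RNA gene Firre had 6 each, Sall1, which codes for a zinc-finger repressor, had 5, and Col14a1, a collagen gene, had 4. At Firre the enrichment was 8.32 to 15.5 within 5.42 to 20.4 kb of a start, whereas at Sall1 it was 3.94 to 38.1 over 27.5 to 539 kb. The peaks of these 4 genes all had fewer than 13 letters of the joined SBS.

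At least 13 of the 16 letters matched in 219 peaks away from promoters (20.4%; exact 95% interval 18 to 22.9%), in 40.1% of the promoter peaks and in 33.9% of those overlapping CTCF. Windows of 274 bp, the median length of these peaks, held such a match in 1.72% of 107309 windows at transcript starts and in 0.306% of 9340413 windows over the genome. Within 200 bp around the summit, a fixed length, the shares were 20.5%, 39.1% and 32.6%, in the same order. The study, which used weighted motif models, reports SBS motifs in 95% of its ZFP143 peaks of all classes. The letter count used here is stricter, so fewer than 13 letters does not mean that the site is absent.

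Median enrichment was higher in peaks with more letters matched. It was 8.5 in 279 peaks with at most 9 letters, 9.53 in 322 peaks with 10, 10.1 in 255 peaks with 11 or 12, 14.9 in 191 peaks with 13 or 14 and 30.0 in 28 peaks with 15 or 16. Over 4 equal bins of enrichment, from the lowest to the highest, 13 or more letters matched in 4.85%, 14.9%, 20.8% and 40.9% of the peaks. Longer peaks offer more windows for a match, and the median length went from 205 bp in the lowest bin to 418 bp in the highest. In the 200 bp around the summit, a fixed length, the shares by bin were 5.22%, 14.9%, 20.8% and 40.9%.

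**Figure D2:**
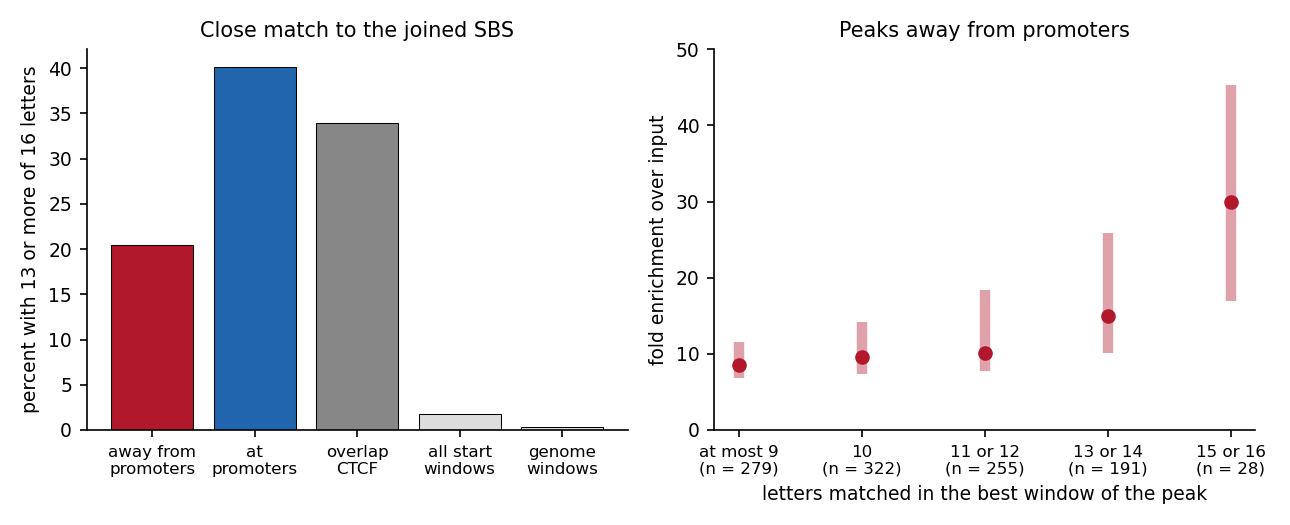
Left, percent of peaks or windows (y axis) in which 13 or more of the 16 letters of the joined SBS matched: 20.4% of the peaks away from promoters, 40.1% of the promoter peaks, 33.9% of the peaks overlapping CTCF, 1.72% of the windows at transcript starts and 0.306% of the genome windows. Right, fold enrichment over input (y axis) of the peaks away from promoters by the letters matched in their best window (x axis), with points for medians and bars from the lower to the upper quartile; the medians go from 8.5 to 30.0.

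The other peaks with 15 letters lay at genes of varied function. The peak with 15 letters in an intron of Nrxn2, the gene of a synaptic adhesion protein, was enriched 84.4-fold, that in an intron of Cavin1, a gene of a caveolar coat protein, 71.4-fold, and that in an intron of Kmt2d, the gene of a histone H3 lysine 4 methyltransferase, 37.4-fold. In an untranslated exon of Dnajb2, a gene of an Hsp70 co-chaperone, the peak with 15 letters was enriched 57.7-fold. Of the 28 peaks with 15 or 16 letters the weakest, at 6.63-fold, lay in a non-coding exon of Trmt10a, 10.3 kb from a start of Mttp.

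The parts of the site were searched on their own. CCCANNATG was found in 28.6% of the peaks away from promoters, in 26.7% of the promoter peaks and in 24.9% of those overlapping CTCF, against 4.68% of start windows and 3.88% of genome windows. ACTACAATT was found in 1.95%, 6.18% and 1.81%, against 0.28% and 0.205%. At least 1 of these parts was in 322 peaks (30.0%; 27.2 to 32.8%), close to the 31.1% at promoters. The short core ACTACA was in 28.5% of the peaks, 48.9% of the promoter peaks, 8.88% of start windows and 12.2% of genome windows.

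Letters of other factors set the classes apart. The octamer ATTTGCAT was in 44 peaks away from promoters (4.09%), in 1.95% of the promoter peaks, 1.08% of start windows and 2.39% of genome windows. TCAAGGTCA, the site of the orphan nuclear receptor ESRRB, was in 1.12%, against 0.158% at promoters and 0.583% of genome windows. In the 200 bp around the summit it was in 0.558%, and the octamer in 3.16%. Letters typical of CpG-rich promoters were rarer than in promoter peaks. GCGCATGCG, of NRF1, was in 0.279% against 3.86%, AAGATGGCG, of YY1, in 0.837% against 6.39%, and CCGGAAGT, of ETS factors, in 1.95% against 9.61%. The CTCF letters AGGTGGCAG and AGGGGGCGC were in 0.744% and 0.372% of the peaks away from promoters and in 4.07% and 9.5% of those overlapping CTCF. A match describes letters in the window and says nothing of binding by that factor.

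Within 500 bp of the start of a small RNA gene lay 22 of the peaks (2.05%). Their median enrichment was 48.7 (5.94 to 106), against 10.1 in the 1025 peaks near neither a small RNA gene nor the start of a pseudogene or unconfirmed gene, and they made up 5 of the 20 most enriched peaks away from promoters. By the annotation 13 lay at snRNA genes, 6 at snoRNA genes, 2 at Y RNA genes and 1 at a microRNA gene. A match of 13 or more letters to the joined SBS was in 1 of the 22, the peak at Mir1955, while 12 held an octamer, 10 the short core and 6 at least 1 of the SBS parts.

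At the snRNA genes the peaks had a common layout. The summit lay upstream of the gene at 12 of 13, with a median position of −182 bp, and an octamer was within 500 bp upstream of 10 of them, starting between −231 and −179 bp. The exception was the peak at Gm24265, whose summit lay 597 bp past the start. The summits at Rny1 and Rny3 lay at −192 and −222 bp, with CCCANNATG starting at −209 and −229 bp. The Rnu3b genes, which code for the U3 snoRNA of ribosomal RNA processing, had Tex14 as the nearest counted gene, as had Rnu1a1, and the 6 peaks assigned to Tex14 all lay at these small RNA genes. Their 5 peaks were weak, from 5.94 to 12.5-fold, and none held an octamer within 500 bp before the start. Near-identical copies of these genes can share reads, so both peaks and counts at single copies are uncertain.

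**Figure D3:**
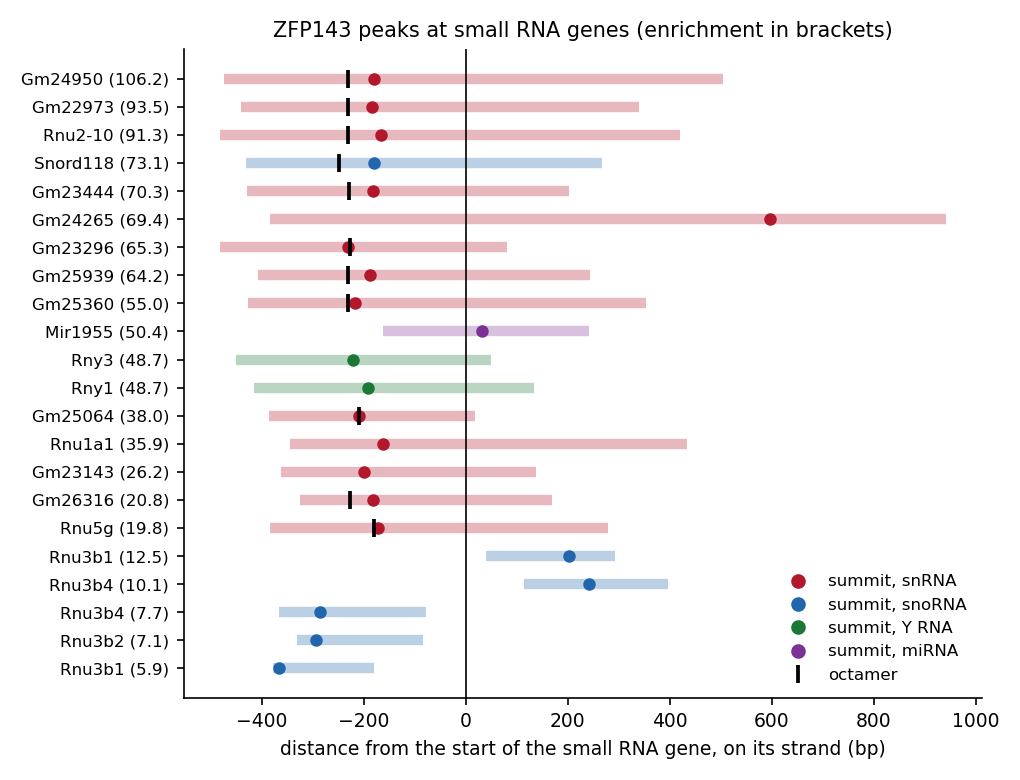
Each row is 1 of the 22 peaks at a small RNA gene (name and fold enrichment on the y axis), drawn as a bar from peak start to end relative to the start of the gene on its strand (x axis, bp), with a dot at the summit and a black tick at the octamer; colours mark the gene type. At snRNA genes 12 of 13 summits lie upstream, with a median of −182 bp, and the 10 octamers there lie between −231 and −179 bp.

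TT-seq tested 17 of the 22 small RNA genes, since the others had too few counts. RNA-seq, whose libraries were made with a kit for mRNA, tested 0, and its low counts say nothing of the level of these RNAs. Rnu3b1 and Rnu3b4 each stand in the annotation as 2 entries with nearly the same coordinates, so the 22 genes are not all separate loci. After 2 and 6 h of dTAG-V1 0 of the 17 were called by the edgeR quasi-likelihood test, and after 24 h 2 were lower and 3 higher, when 4.09% of all tested genes were lower and 2.02% higher. Rny1 was at 8.58 and 13 CPM (counts scaled to library depth) in DMSO, then 5.02 and 5.24 at 2 h, 11.1 and 4.88 at 6 h, and finally 2.07 and 1.22 at 24 h. Both values at 24 h were below all others, while of the 6 h libraries one lay between the DMSO values and the other below both 2 h values. The log2 change at 24 h was −2.74 ± 0.46 (SE; edgeR quasi-likelihood test, adjusted p = 0.0115, but 0.0593 without DMSO replicate 2 and 0.0767 without 24 h replicate 2).

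Rny3 moved like Rny1, with 7.34 and 14.6 CPM in DMSO and 1.97 and 1.37 at 24 h (log2 change −2.74 ± 0.48, adjusted p = 0.0138 by edgeR, but 0.0646 and 0.0842 without the same libraries). Rnu2-10, an snRNA gene, was at 21 and 15.4 CPM in DMSO, then 24.5 and 17.1 at 2 h, 20.6 and 19.5 at 6 h, and finally 38.1 and 40.9 at 24 h. Only the 24 h values lay outside the DMSO range in both replicates, with a log2 change of 1.12 ± 0.22 (edgeR, adjusted p = 0.0214). Rnu1a1 rose by a log2 change of 1.21 ± 0.23 and Rnu5g, a gene of the U5 snRNA, by 2.15 ± 0.46, from 0.414 and 0.838 CPM in DMSO to 2.95 and 2.89 CPM. The calls of these 3 genes were lost without DMSO replicate 2 or either 24 h replicate for Rnu2-10 (0.0649 to 0.0855), without either DMSO replicate or 24 h replicate 2 for Rnu1a1 (0.0664 to 0.0849), and without any 1 of the 4 libraries for Rnu5g (0.0557 to 0.133). Gm24950, with the most enriched of these peaks, was at 0.931 to 1.68 CPM in the 6 libraries of DMSO, 2 h and 6 h and at 2.16 and 2.81 CPM at 24 h, above all of them, and was not called (log2 change 0.90 ± 0.37, edgeR, adjusted p = 0.2).

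The 20 most enriched peaks away from promoters otherwise lay in introns and beside genes of varied function. The peak at 128-fold lay 2.47 kb from a start of Ube2v1, a ubiquitin-conjugating enzyme variant, in an intron of Gm20431. In TT-seq Ube2v1 was at 100 and 94.2 CPM in DMSO and at 73.2 and 82.6 after 24 h, with no overlap, but its log2 change of −0.32 ± 0.12 was not called (edgeR, adjusted p = 0.179). It had under 1 CPM in each RNA-seq library, too little for the test. By the study's methods TT-seq reads that fell in several genes were counted for each, whereas the RNA-seq counts came from STAR. The part of this difference in the low RNA-seq level was not tested. The peak at 121-fold was assigned to Kat14, 55.2 kb away, but lay 35 bp from the start of Zfp133-ps, an annotated pseudogene. Kat14, the gene of an acetyltransferase, was at 102 and 106 CPM in DMSO and 100 and 109 CPM after 24 h.

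The peak at 116-fold lay in an intron of Dlg4, the gene of the postsynaptic protein PSD-95, 2.04 kb from a start. A promoter peak nearest to Acadvl also lay within 2 kb of a start of Dlg4. Dlg4 was at 4.03 and 4.19 CPM in DMSO and 5.66 and 6.99 after 2 h of TT-seq, and it was not called at 2, 6 or 24 h. Ier5l, an immediate early response family gene, had 2 peaks, at 114-fold 21.8 kb from a start and at 48.1-fold in its untranslated exon. It was at 14.4 and 12.3 CPM in DMSO and at 8.34 and 6.61 CPM after 6 h (log2 change −0.83 ± 0.22, edgeR, adjusted p = 0.0935). None of the nearest genes of the 10 most enriched peaks was called at any time of TT-seq.

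The nearest genes of the 1075 peaks numbered 970, of which 695 were protein coding and 275 long non-coding. Of these, 105 also had a ZFP143 peak within 2 kb of a start of their own and 865 did not. TT-seq tested 671 of the 970 (69.2%), against 49.2% of all 32106 protein-coding and long non-coding genes. Nearest genes without a promoter peak had a median level of 42.1 CPM in DMSO and a median span of 50.3 kb, against 18 CPM and 24.6 kb in all 13433 tested genes of the kind without a ZFP143 peak at a start. The part of this higher level and greater span in the counts that follow was not tested.

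After 2 h of dTAG-V1 14 of the 671 nearest genes were lower and 0 higher in TT-seq (edgeR quasi-likelihood test, adjusted p under 0.05 and absolute log2 change above 0.5), when 2.43% of all tested genes were lower and 0.168% higher, with 77 of the 671 at an unadjusted p under 0.05. DESeq2 called 3 higher. Of the 14, 13 had a ZFP143 peak at a start of their own, which is 13.1% of the 99 tested, close to the 16.4% among all genes with such a peak, of which 1.02% were higher. Without a promoter peak, 1 of 572 was lower (0.175%) and 0 were higher, against 0.186% and 0.0447% of all genes without one. Both shares of lower genes were near their background.

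The same contrast at later times, against the same DMSO libraries, gave more calls. After 6 h 22 nearest genes were lower and 4 higher (2.83% and 0.397% of all tested genes), and after 24 h 36 were lower and 22 higher (4.09% and 2.02%). With a promoter peak 18 were lower after 6 h (18.2%) and 22 after 24 h (22.2%), against 17.7% and 21.7% of all genes with one, while 0 and 2 were higher, against 1.02% and 1.27%. Without one, 4 were lower and 4 higher after 6 h (0.699% each, against 0.357% and 0.298%), and 14 were lower and 20 higher after 24 h (2.45% and 3.5%, against 1.12% and 2.34%). A fit with the replicate number as a block called more nearest genes at 2 and 24 h and more higher ones at 6 h. Its counts are given at the end. Leaving out 1 library at a time gave 4 to 11 lower genes at 2 h, 5 to 13 at 6 h and 17 to 26 at 24 h, and 0 to 2, 0 to 2 and 2 to 7 higher genes. At 6 h 0 genes were higher without either 6 h replicate, and 2 and 1 without DMSO replicate 1 or 2.

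**Figure D4:**
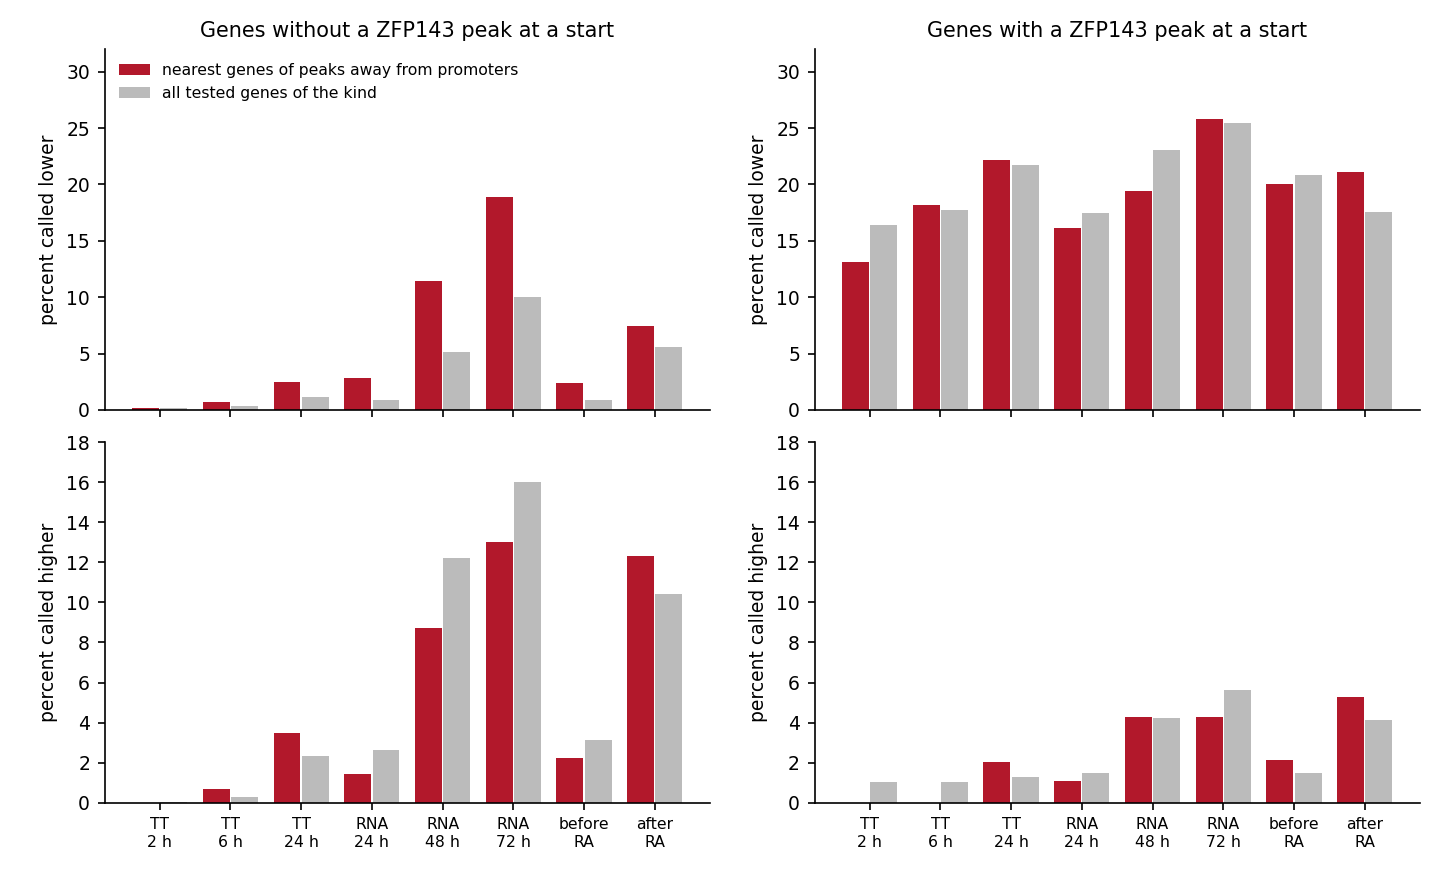
Percent of tested genes called lower (upper panels) or higher (lower panels) in each contrast (x axis), for nearest genes of peaks away from promoters (red) and for all tested genes of the same kind (grey), without (left) or with (right) a ZFP143 peak at a start. On the left, 0.175% of the nearest genes were lower in TT-seq at 2 h and 18.9% in RNA-seq at 72 h, against 0.186% and 9.98%; on the right 13.1% were lower at 2 h, against 16.4%.

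The 1 gene that was lower after 2 h without a promoter peak was Rasgrp4, which codes for a guanine nucleotide exchange factor of Ras known from mast cells. Its peak lay in an intron 2.43 kb from the start, was enriched 19.6-fold and matched at most 11 letters of the joined SBS. The whole peak is shown because it is the 1 case here of an early change without a promoter peak. It is read from GRCm38 on the strand of the gene, and capitals mark the window with the best match, which lies on the minus strand.
Rasgrp4 peak, intron, chr7:29137354-29137646, plus strand: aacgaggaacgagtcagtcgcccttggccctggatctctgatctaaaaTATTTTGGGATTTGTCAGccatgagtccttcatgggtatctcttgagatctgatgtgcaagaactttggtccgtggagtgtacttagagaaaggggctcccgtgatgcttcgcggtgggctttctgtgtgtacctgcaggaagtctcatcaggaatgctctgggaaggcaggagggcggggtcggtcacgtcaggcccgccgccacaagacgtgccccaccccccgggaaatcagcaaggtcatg
With 55.6% GC and a CpG ratio of 0.63, it was among the 64 CpG-rich peaks away from promoters.

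Rasgrp4 was at 8.79 and 8.53 CPM in DMSO, then 1.91 and 2.41 at 2 h, 1.71 and 1.57 at 6 h, and finally 1.48 and 2.2 at 24 h of TT-seq. All 6 depleted libraries lay far below both controls. The log2 change was −1.99 ± 0.28 at 2 h, −2.39 ± 0.30 at 6 h and −2.21 ± 0.29 at 24 h (edgeR, adjusted p = 0.00728, 0.0036 and 0.004). Without replicate 1 or replicate 2 of the 2 h group the adjusted p became 0.101 and 0.0733, and without either replicate of the 6 h group 0.0579 and 0.0593, with the direction kept.

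RNA-seq gave the same direction for Rasgrp4, with 8.08 and 9.98 CPM in DMSO and 1.21 and 1.28 after 24 h, a log2 change of −2.86 ± 0.25 (edgeR glmTreat against a fold change of 1.5, adjusted p = 8.54e-09). In the RA table it was at 9.45 and 7.85 CPM in DMSO and 0.883 and 0.996 CPM in dTAG-V1 before RA. After RA it was at 23.0 and 19.1 CPM in DMSO and 11.5 and 11.4 CPM in dTAG-V1. The groups did not overlap at either stage. The log2 change was −3.19 ± 0.22 before RA (edgeR glmTreat, adjusted p = 1.65e-09) and −0.88 ± 0.13 after RA, which was not called (adjusted p = 0.0223).

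**Figure D5:**
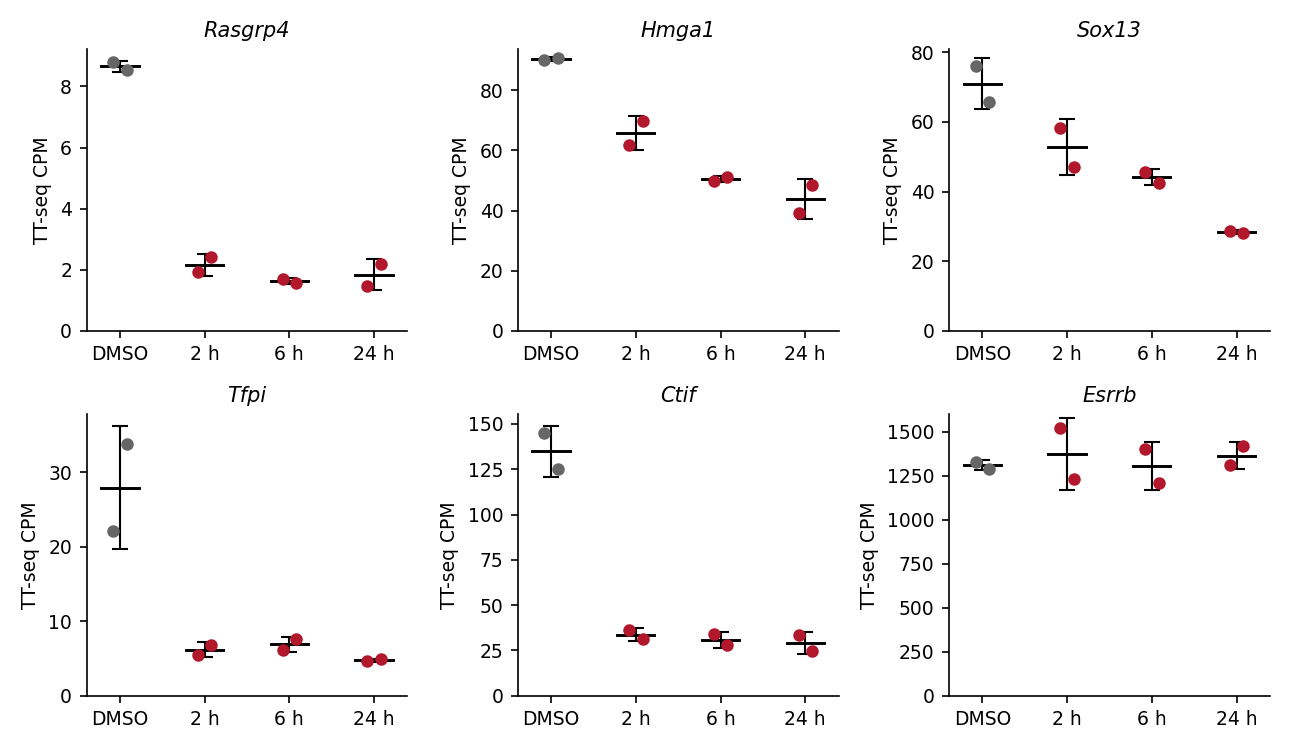
TT-seq CPM (y axis) per library (dots, grey for DMSO and red for dTAG-V1) with mean and SD of 2 replicates, in DMSO and after 2, 6 and 24 h (x axis), for 6 nearest genes of peaks away from promoters. Rasgrp4 falls from 8.66 to 2.16 CPM on average by 2 h, Hmga1 and Sox13 reach 43.8 and 28.4 CPM by 24 h from 90.4 and 71.0 CPM, Tfpi and Ctif, which have a promoter peak, fall by 2 h, and Esrrb stays between 1210 and 1520 CPM.

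At 6 h the lower genes without a promoter peak were Rasgrp4, Hmga1, Sox13 and Rpl3. Hmga1, the gene of an architectural chromatin protein, has a peak of 18.2-fold with 14 letters 15 kb from its start. It was at 90.0 and 90.8 CPM in DMSO, then 61.7 and 69.8 at 2 h, 49.9 and 51.2 at 6 h, and finally 39.1 and 48.5 at 24 h. All 6 depleted libraries lay below both controls, but only the 6 h and 24 h groups were called, with a log2 change of −0.84 ± 0.14 and −1.04 ± 0.14 (edgeR, adjusted p = 0.0141 and 0.00407). The call at 6 h was lost without DMSO replicate 2 (0.0611) or either 6 h replicate (0.155 and 0.129).

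Sox13, the gene of a SoxD transcription factor, has an intronic peak of 13.8-fold 12.6 kb from its start. It was at 76.2 and 65.8 CPM in DMSO, then 58.4 and 47.1 at 2 h, 45.7 and 42.5 at 6 h, and finally 28.8 and 28.0 at 24 h, again with all depleted libraries below both controls. Its log2 change at 6 h was −0.69 ± 0.15 (edgeR, adjusted p = 0.044, and 0.0721 to 0.28 without any 1 of the 4 libraries), and RNA-seq gave −1.05, −2.36 and −3.97 after 24, 48 and 72 h. The 4 genes higher at 6 h were Meg3, an imprinted long non-coding RNA gene with a peak of 28.0-fold 11.8 kb away, Smarca5, which codes for the chromatin remodeller SNF2H, Morc1 and Gtdc1. Meg3 was at 400 and 337 CPM in DMSO and at 671 and 568 CPM after 6 h, with no overlap (log2 change 0.75 ± 0.16, edgeR, adjusted p = 0.0474, and 0.0911 to 0.345 without any 1 of the 4 libraries).

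Of the 10 genes without a promoter peak that changed most at 24 h, 8 were higher. Gm13073, a long non-coding RNA gene 45.2 kb from a peak of 7.12-fold, was at 1.14 and 0.305 CPM in DMSO and at 9.64 and 3.95 CPM at 24 h (log2 change 3.29 ± 0.60, edgeR, adjusted p = 0.0171, but 0.0772 without DMSO replicate 2 and 0.0545 without 24 h replicate 1). Stard13, Sgcd, Pde6a, Slc35f1, Gm36536, Hpgd and Veph1 rose as well, with log2 changes of 1.43 to 1.79 and peaks at 4.1 to 192 kb. Gm36536, with 4 and 7 counts in DMSO, was tested only because depleted libraries held over 10 counts. The same is true of 31 of the 361 genes called higher at 24 h in the whole table (8.59%). Without any 1 of the 4 libraries the calls of Stard13, Pde6a, Slc35f1, Gm36536 and Veph1 were lost (edgeR, adjusted p = 0.0594 to 0.185), without either DMSO replicate or 24 h replicate 1 that of Hpgd (0.0611 to 0.0988), and without DMSO replicate 2 that of Sgcd (0.0528). DESeq2 did not call Stard13, Pde6a, Slc35f1 or Veph1 (0.0654 to 0.116). Sgcd, which codes for a sarcoglycan of muscle, went from 3.72 and 3.12 CPM to 14.1 and 9.50 CPM. Rac2 fell from 7.86 and 4.04 CPM to 1.97 and 1.06 CPM (log2 change −1.98 ± 0.48, edgeR, adjusted p = 0.0456, but 0.197 without DMSO replicate 1 and 0.0806 and 0.19 without either 24 h replicate).

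By distance of the peak, the TT-seq calls at 24 h without a promoter peak were as follows. Within 2 to 5 kb 5 of 125 genes were lower and 1 higher, from 5 to 10 kb 2 of 142 were lower and 3 higher, from 10 to 50 kb 6 of 257 were lower and 10 higher, from 50 to 100 kb 0 of 49 were lower and 3 higher, and beyond 100 kb 1 of 35 was lower and 5 higher. Enrichment above 20-fold went with 1 lower and 3 higher of 125 genes, and 13 or more letters with 1 lower and 1 higher of 111. Among all genes without a promoter peak 1.12% were lower and 2.34% higher. The share with a log2 change below 0, called or not, fell with distance. It was 71.2%, 53.5%, 43.6%, 24.5% and 20% over the 5 bins, against 44.3% of all genes without a promoter peak. This order was not tested.

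Nearest genes with a promoter peak of their own made up most of the early decreases. Tfpi, the gene of tissue factor pathway inhibitor, has a promoter peak of 22-fold and a further peak of 19.6-fold 5.31 kb from a start. It was at 22.1 and 33.8 CPM in DMSO, then 5.50 and 6.87 at 2 h, 6.16 and 7.60 at 6 h, and finally 4.62 and 4.86 at 24 h, all below both controls (log2 change at 2 h −2.17 ± 0.26, edgeR, adjusted p = 0.00349, but 0.0575 without 2 h replicate 1). Ctif, which codes for a factor of cap-dependent translation, has a promoter peak of 59.4-fold and an intronic peak of 9.53-fold. It was at 145 and 125 CPM in DMSO and at 36.3 and 31.1 CPM after 2 h (log2 change −2.0 ± 0.19, edgeR, adjusted p = 0.00113).

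Among the 10 nearest genes with a promoter peak and the greatest decrease at 2 h, Dnajb2 had a peak away from promoters, at 57.7-fold, above its promoter peak, at 32.7-fold. It was at 12.8 and 8.46 CPM in DMSO and 3.35 and 2.11 CPM after 2 h, without overlap, but its call was lost without DMSO replicate 1 (edgeR, adjusted p = 0.0908) or either 2 h replicate (0.0769 and 0.188). The others, Sgf29, Bod1, Gm47430, Pipox, Irf3, Map2k6 and Hsph1, the gene of an Hsp110 chaperone, had log2 changes of −1.41 to −2.10 at 2 h. The call of Irf3 was lost without any 1 of the 4 libraries (edgeR, adjusted p = 0.0638 to 0.29), those of Sgf29, Bod1 and Gm47430 without DMSO replicate 2 or either 2 h replicate (0.0627 to 0.147), that of Map2k6 without DMSO replicate 1 or either 2 h replicate (0.0774 to 0.16) and that of Pipox without DMSO replicate 2 (0.0533) or 2 h replicate 1 (0.0735). Hsph1 pairs a promoter peak of 137-fold with a peak of 6.8-fold 9.1 kb away. In such genes the parts of both peaks cannot be told apart.

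RNA-seq measures RNA already present as well as new RNA. After 24 h 29 of 585 tested nearest genes were lower and 8 higher (edgeR glmTreat against a fold change of 1.5, adjusted p under 0.01), when 3.41% of all tested genes were lower and 2.32% higher. Without a promoter peak 14 of 492 were lower (2.85%) and 7 higher (1.42%), against 0.917% and 2.63% of all such genes. After 48 h 56 were lower (11.4%) and 43 higher (8.74%), against 5.14% and 12.2%, and after 72 h 93 were lower (18.9%) and 64 higher (13%), against 9.98% and 16%. Over all nearest genes the counts were 74 and 47 at 48 h, with backgrounds of 7.71% and 10.5%, and 117 and 68 at 72 h, with 12% and 13.7%. The share of lower genes without a promoter peak was above its background and that of higher genes below it at each of the 3 times, which share their DMSO libraries. With a promoter peak 15, 18 and 24 of 93 were lower at the 3 times, against 17.5%, 23.1% and 25.5% of all such genes, and 1, 4 and 4 higher, against 1.51%, 4.25% and 5.62%. The genes without one had a median level of 37.2 CPM and a median span of 50.8 kb, against 26.7 CPM and 24.2 kb in all 10901 such genes, and the part of this difference was not tested.

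The split between lower and higher calls depended on the scaling. With library size alone in place of TMM, the median of all genes shifted by a log2 change of 0.13, 0.2 and 0.22 at 24, 48 and 72 h, and the nearest genes called were 23 lower and 13 higher, 53 lower and 71 higher, and 87 lower and 99 higher. Without a promoter peak the lower share was then 2.03%, 7.72% and 13.8%, against a background of 0.587%, 3.01% and 6.4%, and the higher share 2.44%, 12.8% and 17.9%, against 4.05%, 17.0% and 22.5%. The order of each share and its background was thus the same under both scalings.

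By distance of the peak, the shares of genes without a promoter peak that were called showed no steady order in RNA-seq. Within 2 to 5 kb 7 of 115 were lower at 24 h (6.09%), from 5 to 10 kb 2 of 126 (1.59%), from 10 to 50 kb 4 of 223 (1.79%), from 50 to 100 kb 2 of 39 (5.13%) and beyond 100 kb 0 of 22, against 0.917% of all such genes. At 72 h the lower shares were 22.6%, 18.3%, 17%, 25.6% and 9.09% in the same order, against 9.98%, and the higher shares 11.3%, 11.1%, 13%, 23.1% and 13.6%, against 16%. The share with a log2 change below 0, called or not, fell with distance at 72 h. It was 62.6%, 57.1%, 52.5%, 46.2% and 40.9%, against 45.3% of all such genes. At 24 h it was 63.5%, 50.8%, 54.3%, 43.6% and 36.4%, against 42.3%, which is no steady fall. Genes with peaks in several bins count in each, and the order by distance was not tested. A peak above 20-fold went with 4 lower and 2 higher of 112 genes at 24 h and with 16 lower and 19 higher at 72 h.

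Among nearest genes of the most enriched peaks, Ier5l was at 18.4 and 19.4 CPM in DMSO, then 13.1 and 14.7 at 24 h, 8.0 and 7.3 at 48 h, and finally 3.52 and 3.89 at 72 h of RNA-seq. All groups were apart from each other, and the log2 change at 72 h was −2.34 ± 0.15 (edgeR glmTreat, adjusted p = 5.93e-12). Rdm1, a recombination gene next to the peak of Gm24950 that also has a promoter peak of 36.3-fold, was higher at 24 h alone, at 59.5 and 67.0 CPM against 34.4 and 32.3 CPM in DMSO (log2 change 0.92 ± 0.08, edgeR glmTreat, adjusted p = 0.000297, but 0.0101 without DMSO replicate 2 and 0.0156 without 24 h replicate 2). Arl4d, which codes for a small GTPase of the ARF family, was at 6.06 and 5.7 CPM in DMSO and 2.87 and 2.11 CPM at 72 h (log2 change −1.26 ± 0.23, edgeR glmTreat, adjusted p = 0.00284). This call was lost without DMSO replicate 1 (0.0105) or 72 h replicate 2 (0.0712), with library size alone (0.0242) and with DESeq2 (0.176).

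Of the 14 genes lower at 24 h without a promoter peak, chosen after their values were seen, 7 had a peak within 5 kb and 8 an intronic peak. Rasgrp4 was followed by Lrrn2, Mob3c, Gm35339, Gstm3, Rnf144b, Fam49a, Lpl, Sox13, Sh3pxd2a, Trh, Prdm14, Sf3b5 and Lefty2, with log2 changes from −2.86 to −0.77. Without 1 library at a time Sf3b5 lost its call in each of 4 cases (edgeR glmTreat, adjusted p = 0.0155 to 0.0457, and 0.0112 with the replicate block and 0.0128 without the count filter), Lrrn2 without either 24 h replicate (0.033 and 0.0139), Fam49a without DMSO replicate 1 (0.0292) or 24 h replicate 1 (0.164), Gm35339 without 24 h replicate 1 (0.0665) and Rnf144b without 24 h replicate 2 (0.0256). DESeq2 did not call these 5 or Prdm14 (0.134 to 0.5), and with library size alone Fam49a and Sf3b5 were lost too (0.0184 and 0.388). Mob3c was at 25.9 and 28.5 CPM in DMSO and 9.04 and 9.21 CPM after 24 h. Lpl, the gene of lipoprotein lipase, was at 39.1 and 38.6 CPM in DMSO and 17.8 and 17.6 CPM after 24 h, with a peak of 8.3-fold 2.55 kb from its start. Trh, which codes for the precursor of thyrotropin-releasing hormone, was at 361 and 423 CPM and then at 193 and 207 CPM, with a peak of 34.0-fold 3.24 kb away. In TT-seq only Rasgrp4 of these 14 had an adjusted p under 0.05 at 2 h, and 5 had one at 24 h.

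The 7 genes higher at 24 h were Meg3, Ahi1, Boc, Synpr, Zfp536, Slamf9 and Gm13073, and 0 of them had a peak within 5 kb. Slamf9 lost its call without either DMSO replicate or 24 h replicate 1 (edgeR glmTreat, adjusted p = 0.0251 to 0.0509) and Synpr without DMSO replicate 1 or either 24 h replicate (0.023 to 0.0929), and DESeq2 did not call Meg3, Synpr, Slamf9 or Zfp536 (0.133 to 0.352). Boc, the gene of a Hedgehog co-receptor, rose from 3.49 and 4.06 CPM to 12 and 11 CPM. Zfp536, which codes for a zinc-finger protein of neurons, was at 0.0918 and 0.214 CPM in DMSO and 1.05 and 1.28 CPM after 24 h. It had 1 and 3 counts in DMSO, and Gm13073 had 2 and 6. Of the 8 nearest genes called higher at 24 h these and Synpr and Slamf9 had no DMSO library over 10 counts, so they passed the count filter only through the depleted libraries in which they are high. The same held for 13 of 47 higher genes at 48 h and 17 of 68 at 72 h, and for 19.5%, 25% and 21.3% of the higher genes of the whole table at the 3 times, against 0 of the lower genes. With 6 of the 8 libraries depleted the filter thus admits genes that rise from near 0 but none that fall to 10 counts or fewer in all depleted libraries, so the counts of higher genes are not independent of it.

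Genes of the naive pluripotency network were looked at as a list, of which 7 of 20 genes are nearest to a peak away from promoters: Prdm14, Nr5a2, Lefty2, Nodal, Esrrb, Nanog and Zfp42. Nanog and Zfp42 also have a promoter peak. In TT-seq 0 of the 7 were called at 2 and 6 h and Prdm14 was lower at 24 h. This call was lost without any 1 of the 4 libraries, with log2 changes of −0.74 to −0.64. Of all tested genes 2.43%, 2.83% and 4.09% were lower at 2, 6 and 24 h and 0.168%, 0.397% and 2.02% higher. In RNA-seq 2, 4 and 3 of the 7 were lower and 0 higher after 24, 48 and 72 h. Of all tested genes 3.41%, 7.71% and 12% were then lower and 2.32%, 10.5% and 13.7% higher. With library size alone both calls at 24 h were lost (Lefty2, adjusted p = 0.336 and Prdm14, 0.172), as was that of Nr5a2 at 48 h (0.0232). Before RA 0 of the 7 were called, and after RA Lefty2 was lower and Esrrb higher, when 7.36% of all genes were lower and 9.1% higher. The median log2 change of the 7 in RNA-seq was −0.48, −0.9 and −0.62, against −0.06, −0.09 and −0.15 in all nearest genes, and in the RA table −0.27 before and 0.65 after RA, against −0.04 and 0.03.

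Lefty2, the gene of a Nodal antagonist, has a peak of 10.1-fold 4.12 kb from its start. In RNA-seq it was at 901 and 921 CPM in DMSO, then 538 and 531 at 24 h, 240 and 232 at 48 h, and finally 169 and 150 at 72 h, with no overlap between any of the groups (log2 change at 72 h −2.52 ± 0.05, edgeR glmTreat, adjusted p = 1.48e-23). In TT-seq it was at 81.5 and 41.8 CPM in DMSO and 57.7 and 39.8 CPM after 24 h, values that overlap. Its TT-seq log2 change was 0.39, 0.71 and −0.34 at 2, 6 and 24 h, without a call. Prdm14, a transcription regulator of the germ line and of naive cells, was at 69.1 and 69.0 CPM in DMSO, then 35.1 and 42.4 at 24 h, 24.6 and 24.1 at 48 h, and finally 17.0 and 17.2 at 72 h. Its call at 24 h was lost without either DMSO replicate (edgeR glmTreat, adjusted p = 0.0127 and 0.0168) or 24 h replicate 1 (0.287).

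Nanog went from 759 and 779 CPM in DMSO to 540 and 514 at 24 h, then 301 and 304 at 48 h, and finally 253 and 248 at 72 h, with a log2 change of −1.62 ± 0.04 at 72 h (edgeR glmTreat, adjusted p = 1.83e-19). Esrrb, whose peak holds 15 letters 84.8 kb from its start, stayed at 893 to 1010 CPM in all 8 RNA-seq libraries and at 1210 to 1520 CPM in TT-seq, and was not called at any time.

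Other lists were thin. Of 15 nearest genes with a Zfp symbol 0 or 1 were lower and 0 to 2 higher in each contrast, when 2.43%, 2.83% and 4.09% of all tested genes were lower in TT-seq at the 3 times, 3.41%, 7.71% and 12% lower and 2.32%, 10.5% and 13.7% higher in RNA-seq, and 3.66% and 7.36% lower and 2.74% and 9.1% higher at the stages of the RA table. Counts of this size are near the background and are no result about the list. Zfp382, with a peak of 33.1-fold 18 kb away and a promoter peak of 31.2-fold, was lower in TT-seq at 6 and 24 h, from 15.1 and 14.5 CPM to 7.02 and 5.95 and then 7.48 and 5.09 CPM. It was lower in RNA-seq too, with a log2 change of −1.58, −2.07 and −1.74 at the 3 times, and at both stages of the RA table. Its TT-seq calls were lost at 6 h without any 1 of the 4 libraries (edgeR, adjusted p = 0.102 to 0.252) and at 24 h without either DMSO replicate or 24 h replicate 2 (0.0668 to 0.107), and that after RA without any 1 of its 4 libraries (0.0125 to 0.112), with library size alone (0.07), RLE scaling (0.0117), the replicate block (0.0107) or DESeq2 (0.296). DESeq2 also lost its RNA-seq call at 24 h (0.0366). Zfp536 was higher in RNA-seq at all 3 times and before RA, and Zfp362 at 48 and 72 h. The call of Zfp536 at 24 h was lost without any 1 of its 4 libraries (adjusted p = 0.022 to 0.0653) and with DESeq2 (0.197). DESeq2 called Zfp362 at neither time (0.141 and 0.299), and edgeR lost it at 48 h without DMSO replicate 2 (0.034) and at 72 h without DMSO replicate 2 or either 72 h replicate (0.0112 to 0.0805) or without the count filter (0.0128). Of the mitochondrial ribosome only Mrpl36 and Mrpl58 are nearest genes, and 0 of the 2 were called in any contrast.

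In the RA table, 32 of 633 tested nearest genes were lower and 14 higher in dTAG-V1 before RA, when 3.66% of all genes were lower and 2.74% higher, and 60 were lower and 71 higher after RA, when 7.36% were lower and 9.1% higher. Without a promoter peak 13 of 538 were lower (2.42%) and 12 higher (2.23%) before RA, against 0.903% and 3.13%, and 40 were lower (7.43%) and 66 higher (12.3%) after RA, against 5.56% and 10.4%. With a promoter peak 19 of 95 were lower and 2 higher before RA, against 20.8% and 1.48%, and 20 and 5 after RA, against 17.6% and 4.13%. Of the higher genes 2 of 14 before and 4 of 71 after RA had no DMSO library of that stage over 10 counts, against 14.7% and 6% of the higher genes of the whole table. Scaled by library size alone, which shifted the median of all genes by 0.13 and 0.21, the nearest genes called were 27 lower and 22 higher before RA and 38 lower and 113 higher after RA. Without a promoter peak the shares were then 1.86% lower and 3.53% higher before RA, against 0.581% and 4.55%, and 4.65% and 18.6% after RA, against 3.5% and 15.1%. Before RA the counts by distance were 7 lower and 0 higher of 126 from 2 to 5 kb, 4 and 3 of 132 from 5 to 10 kb, 2 and 9 of 245 from 10 to 50 kb, 0 and 1 of 44 from 50 to 100 kb and 0 and 0 of 25 beyond. After RA they were 13 and 13, 10 and 15, 17 and 34, 3 and 10, and 1 and 5.

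Esrrb was at 1290 and 1440 CPM in DMSO and 1010 and 1050 CPM in dTAG-V1 before RA, and at 85.3 and 49.7 CPM in DMSO and 406 and 336 CPM in dTAG-V1 after RA. It was thus lower in both depleted libraries before RA, without a call, and higher in both after RA, with a log2 change of 2.44 ± 0.15 (edgeR glmTreat, adjusted p = 3.82e-10). Of the nearest genes of the 10 most enriched peaks, Nrxn2 and Dlg4 were called lower at both stages, Rdm1 higher before RA (log2 change 0.96 ± 0.09) and Arl4d higher after RA (0.99 ± 0.13). Nrxn2 was at 8.03 and 8.37 CPM in DMSO and 3.58 and 4.15 CPM in dTAG-V1 before RA, and at 33.0 and 35.1 CPM and 16.4 and 19.2 CPM after RA, without overlap. The log2 change was −1.07 ± 0.16 and −0.93 ± 0.11 (edgeR glmTreat, adjusted p = 0.00874 and 0.00367). Dlg4 had a log2 change of −1.79 ± 0.34 and −1.52 ± 0.19. Without any 1 of the 4 libraries before RA the adjusted p of Nrxn2 became 0.022 to 0.0861, and without DMSO replicate 2 or dTAG-V1 replicate 1 after RA 0.0269 and 0.103. For Dlg4 it became 0.0304, 0.0206 and 0.133 before RA without DMSO replicate 1, DMSO replicate 2 or dTAG-V1 replicate 2. Rdm1 before RA lost its call without DMSO replicate 1 (0.0118), and Arl4d after RA without DMSO replicate 2 (0.0171) or dTAG-V1 replicate 1 (0.0318). In the other RNA-seq table Arl4d was called in the opposite direction, lower at 72 h (log2 change −1.26), Rdm1 was higher at 24 h only, Nrxn2 was not called at any time, and Dlg4 had a log2 change of −1.12, −1.61 and 0.56 at 24, 48 and 72 h, without a call. Lefty2 after RA was at 11.3 and 11.4 CPM in DMSO and 2.09 and 2.47 CPM in dTAG-V1 (log2 change −2.31 ± 0.15, edgeR glmTreat, adjusted p = 1.73e-09).

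4C, which counts ligation products between a viewpoint and the fragments around it, touched 7 of these peaks, in 9 pairs of viewpoint and peak within 1 Mb. In 10 kb on either side of the peak, the mean signal after 6 h of dTAG-V1 was 0.754 to 1.096 times that in DMSO. The strongest of these peaks, at 66.4-fold near Phldb3, was read from the Zfp108 viewpoint, 353.9 kb away, with 2630.3 and 3696.5 RPM (reads scaled to library depth) in DMSO and 2705.4 and 2064.4 RPM in dTAG-V1, values that overlap. From the Zfp111 viewpoint the same peak had 1836.9 and 2975.1 RPM in DMSO and 2140.5 and 2171.9 RPM in dTAG-V1, which also overlap. The groups did not overlap in 1 of 9 pairs, a peak of 7.37-fold near Irgq seen from Zfp111, with 2036.9 and 2262.1 RPM in DMSO and 2441.1 and 2270.8 RPM in dTAG-V1. Of all bins of 20 kb within 1 Mb, 39.4% did not overlap from this viewpoint, 45.9% from Zfp108 and 22% from Sik1, so 1 of 9 is not above the background. With 5 or 25 kb on either side the Irgq pair overlapped, while Phldb3 from Zfp108 did not at 5 kb (0.697 times DMSO), nor did a pair of Sik1 peaks at 25 kb (0.847 and 0.871).

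From the Sik1 viewpoint the 5 peaks gave ratios of 0.869 to 0.975, with overlapping replicates at each. Their direction was not stable throughout. Leaving out 1 library at a time gave 0.767 to 1.184 at Pde9a, 0.855 to 1.092 at AC166654.1 and 0.786 to 1.016 at the Sik1 peak 14.9 kb from the viewpoint. At the Sik1 peak 29.9 kb away it gave 0.871 to 1.0 and near Notch3 0.776 to 0.974, not above DMSO. The exact permutation test of 2 against 2 cannot go below p = 0.333, so 0 of the pairs could be called. An edgeR test on the recovered reads in bins of 20 kb, chosen after the data were seen, called 0 of 94 to 100 bins of a viewpoint, with 4 to 7 at an unadjusted p under 0.05. In it 3 of the 4 Sik1 peaks with a value turned to above DMSO (log2 change 0.1 at Pde9a, 0.03 at AC166654.1 and 0.04 at the peak 29.9 kb from the viewpoint), and 1, near Notch3, did not (−0.04).

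For the whole series, total counts were 9721568 to 16532077 per library in TT-seq, 10261851 to 15316700 in RNA-seq and 13890761 to 27089033 in the RA table, and the shared biological coefficient of variation was 17.2%, 3.65% and 5.92%. Zfp143 RNA, which the degron does not target, went from 71.3 and 74.4 CPM in DMSO to 162 and 165 CPM after 2 h of TT-seq, so the RNA does not check the loss of the protein. Markers of mESCs summed to 2520 to 2890 CPM in TT-seq and 3060 to 4690 CPM in RNA-seq, and 3 fibroblast markers to 0.533 to 1.57 and 2.48 to 5.52 CPM. In the same order, primitive endoderm markers summed to 9.28 to 22 and 5.69 to 15.1 CPM, mesoderm markers to 1.49 to 5.41 and 6.29 to 17.5 CPM and neural markers to 1.24 to 4.62 and 2.76 to 11.1 CPM, and their part in the changes of single genes was not tested.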

How the data were processed

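The authors mapped ChIP-seq reads to mm10 with bwa mem, removed duplicates and blacklisted regions and called ZFP143 peaks with MACS2 against input. The deposited list gives 1 fold enrichment over input, a ratio, and 1 −log10 q per peak. The CTCF list pools DMSO and dTAG-V1 libraries and was used for positions only. The deposited counts per gene came from STAR, with htseq by strand for TT-seq, and the deposited 4C values were RPM per fragment, in which 100.0% of the values above 0 were whole reads (tolerance 0.01). Starts were taken from GENCODE release 21, not the M25 of the study, so a peak near the 2 kb limit may be classed otherwise; in it 55141 of 55401 counted genes were found. A gene was fitted where 4 or more of the 8 libraries held over 10 counts, over the whole table, with edgeR 4.0.16 (R 4.3.3, TMM, all groups, Benjamini-Hochberg over all tested genes): quasi-likelihood test with an absolute log2 change above 0.5 and adjusted p under 0.05 for TT-seq, and glmTreat against a fold change of 1.5 with adjusted p under 0.01 for RNA-seq. In simulated data, 79.6% of the genes changed by a log2 change of −2 were called at TT-seq 2 h and 92% at RNA-seq 24 h. A p-value sets a change against a spread between replicates that was estimated over all 4 groups of 2 libraries together. This spread was also drawn towards that of other genes. The genes named were the nearest genes of the 10 most enriched peaks, up to 10 called genes per TT-seq time with the greatest change, with and without a promoter peak, and the members of the lists. Nearest genes called in RNA-seq at 24 h without a promoter peak are named beyond this rule, after their values were seen. The peaks, lists and alternatives were chosen with earlier results of these data known. DESeq2 1.42.0 was an alternative.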

Additional observations from a re-analysis of the deposited data

Results flagged for a closer look

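The effect of depletion was compared between times or stages by a test of the difference itself (edgeR quasi-likelihood test, adjusted over all genes tested in the table), and it differed for 1, 25 and 30 of the nearest genes named by the rule in TT-seq, RNA-seq and the RA experiment. In TT-seq, where 16 of 17870 genes differed between 24 h and 2 h (0.0895%), St3gal2, a sialyltransferase gene with a promoter peak of 206-fold and a further peak of 8.73-fold 3.63 kb from a start, went from a log2 change of −0.96 to −2.16, a difference of −1.19 ± 0.15 (adjusted p = 0.0337).

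In RNA-seq 4938 of 13925 genes differed between 72 h and 24 h (35.5%), among them 253 of the 585 nearest genes. Further below DMSO at 72 h were St3gal2, by a log2 difference of −3.79 ± 0.19, Sox13 (−2.92), Ier5l (−1.89), Lefty2 (−1.75), Tfpi and Map2k6 (−1.4 each), Hmga1 (−1.27), Prdm14 (−1.17), Rac2 (−1.12), H2afy (−1.08), Nanog (−1.07), Arl4d (−0.86) and Pipox (−0.76). The effect was also lower at 72 h for Rdm1 (a difference of −0.95), which went from above DMSO to its level (31.9 and 33.3 CPM against 34.4 and 32.3), Morc1 (−0.83), from 275 and 260 CPM to 150 and 152 against 226 and 240 in DMSO, and Mrpl58 (−0.76), from the DMSO level to 22.3 and 25.6 CPM against 37.5 and 40.4. Further above DMSO were Pde6a (1.19), Zfp536 (1.1), Hpgd (1.02), Gm13073 (0.62) and Zfp362 (0.55), of which Pde6a, Zfp536 and Gm13073 had at most 6 counts in a DMSO library. Less far below were Hsph1 (0.97) and Sgf29 (0.53), while Nodal (0.71) went from below to above DMSO, without a call at either time. Dlg4 (1.68) was below DMSO at 24 h and overlapped it at 72 h, also without a call.

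Between the depletion effects after and before RA, 5049 of 15915 genes differed (31.7%), among them 250 of the 633 nearest genes. This difference holds RA, the change of medium and a further 24 h of depletion, which cannot be told apart. Slc35f1, with 0 and 2 counts in DMSO before RA, had a log2 difference of −3.63 ± 0.84 without a call at either stage, and Gm47430 one of −2.68 ± 0.57. Other differences below 0 were those of Lefty2 (−2.04), Rdm1 (−1.65), Zfp536 (−1.32), Pipox (−1.2), Tfpi (−1.11), Gtdc1 (−1.03), Rpl3 (−0.96), Zfp27 (−0.83), Zfp462 (−0.73), Mrpl58 (−0.57), Meg3 (−0.56) and Nodal (−0.54). Esrrb had a difference of 2.84 ± 0.20 and Rasgrp4 of 2.3 ± 0.26, from −3.19 before to −0.88 after RA. Also above 0 were Rac2 (1.48), Dnajb2 (1.28), Arl4d (1.25), Prdm14 (1.16), Hsph1 (1.11), St3gal2 (1.03), Zfp626 (0.87), Nr5a2 (0.86), Zfp382 (0.76), Zfp42 (0.73), Bod1 (0.61), Irf3 (0.58), Sgf29 (0.55) and Nanog (0.52).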

How the results depend on the processing

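Under other limits, transcript sets, positions and CTCF overlaps the number of peaks away from promoters, 1075, went from 877 at 5 kb to 1178 at 1 kb, and it was 763 at a −log10 q of at least 10. The intron share stayed within 42.3 and 45.1%. Of the values of named genes recomputed under alternatives (each of their calls in the 3 tables) 1560 kept their call, 280 lost it (211 of them when 1 library was left out) and 0 changed sign. With a limit of 5 kb, exons held 3.31% and the space between genes 54.4%, and with the study's transcript types exons held 6.64%. At a −log10 q of at least 10 the median enrichment was 13.1.

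TT-seq counts of nearest genes changed without the count filter to 33, 44 and 65 lower and 14, 23 and 48 higher at the 3 times. Host genes in place of nearest genes gave 8 lower and 2 higher at 2 h, 11 lower at 6 h and 21 lower at 24 h, and genes without a promoter peak 1, 4 and 14 lower. DESeq2 gave 3 higher at 2 h and 10 at 6 h, and RLE scaling 2 higher at 6 h. In RNA-seq DESeq2 gave 19 lower and 3 higher at 24 h, 28 higher at 48 h and 41 at 72 h, library size alone 13 higher at 24 h and 71 at 48 h, and the nearest tested gene 18, 86 and 117 higher. Host genes gave 18, 44 and 66 lower, with 28 and 40 higher at 48 and 72 h, and genes without a promoter peak 14 lower at 24 h. Before RA the values were 13 lower without a promoter peak, and 22 higher with library size alone, 6 with DESeq2, 29 for the nearest tested gene and 8 for host genes. After RA library size alone gave 38 lower and 113 higher and DESeq2 38 higher. The cause was not tested. Except for library size alone, these counts are given without the share of all genes called under the same setting. They are therefore no result about the nearest genes.

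A fit with the replicate number as a block gave 22 lower and 1 higher at 2 h of TT-seq, 16 higher at 6 h, and 60 lower and 47 higher at 24 h. The share of all genes called by this fit is not given, so these counts are no result about the nearest genes. The correlation of same-numbered deviations was 0.275, 0.193 and 0.631 in TT-seq and −0.0419 to 0.125 elsewhere, and the labels give only a shared number, so this pairing is not used above.

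Leaving out 1 library at a time, where the lone sample is assumed to vary like the others, left 4 to 11, 5 to 13 and 17 to 26 lower genes over the 3 TT-seq times, and 0 to 2, 0 to 2 and 2 to 7 higher. In RNA-seq such fits called 22 to 26, 61 to 73 and 105 to 117 lower genes and 5 to 7, 35 to 41 and 50 to 62 higher. Before RA 23 to 32 were lower and 7 to 10 higher, and after RA 43 to 49 and 49 to 64.

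For 4C, the Sik1 peaks gave 1.028 (at −29.9 kb, edgeR bins) and 1.079 (at −14.9 kb, 25 kb window, which holds the viewpoint), Irgq from Zfp108 1.057 (5 kb), Phldb3 from Zfp108 1.062 (25 kb), and Irgq from Zfp111 0.937 (25 kb) and 1.301 (edgeR bins). Ratios that crossed 1 by less than the spread were 1.072 at Pde9a and 1.021 at AC166654.1 from Sik1 (edgeR bins), 1.016 at Irgq from Zfp108 (25 kb) and 1.04 at Phldb3 from Zfp111 (5 kb).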
